A study of Homo sapiens with 14 samples.

Results

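The keratin genes (KRT) and the keratin-associated protein genes (KRTAP) were followed through lists of STAT5 and BCL6 binding intervals from DLD-1, a human cell line long established from a colorectal adenocarcinoma. Members were all symbols made of KRT and a number, with at most 1 letter after it, or of KRTAP and a hyphenated pair of numbers. The reference holds 162 such symbols, of which 149 are protein-coding among its 20056 protein-coding symbols and 13 are pseudogenes. At least 1 interval was listed for 143 members, 138 of them protein-coding. Within these gene families the symbols alone chose the members, but the families were chosen with earlier results of these data known.

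The libraries were made by chromatin immunoprecipitation with sequencing. In the activator STAT5 group (2 libraries, antibody C-17), cells carried the plasmid pEGFP-C1199Tiam1, which codes for a fragment of the RAC1 activator TIAM1, and received vehicle. In the inhibitor BCL6 group (3 libraries, antibody N-3), cells carried the same plasmid and were kept for 16 h with 20 microM EHT 1864, an inhibitor of RAC. The control STAT5 and control BCL6 groups (2 libraries each) carried an empty vector. All cells were transfected, and chromatin was taken 20 h after transfection. Of 14 libraries in the series these 9 were used, and 5 (activator BCL6 and inhibitor STAT5) were not analysed here. The labels do not say whether replicates were separate cultures, so the spread between libraries may be technical. An immunoprecipitation gives no expression, so the cell line could not be checked through marker genes.

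Keratins are the intermediate filament proteins of epithelial cells, and each filament is built from a type I and a type II keratin. Simple epithelia such as the gut lining use mainly KRT8, KRT18, KRT19 and KRT20, stratified epithelia use pairs such as KRT5 with KRT14 or KRT1 with KRT10, and hair and its root sheaths have keratins of their own. KRTAP proteins are small and rich in cysteine or in glycine and tyrosine, and they form the matrix around keratin filaments in the hair shaft. In the genome these genes lie in dense clusters: the type II keratins and KRT18 on chromosome 12, the other type I keratins with many KRTAP genes on chromosome 17, and further KRTAP genes on chromosomes 21 and 11. STAT5 is a transcription factor that activates genes after cytokine or kinase signals, and BCL6 is a repressor that recognises a sequence similar to that of STAT5. The study asked what becomes of sites held by the one factor when RAC1 and PAK1 signalling is turned up or blocked.

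Promoter sequences are shown for 4 members with an interval that reaches the 300 bases from 250 before to 50 after the gene start. In these members the gene length in the lists is within 60 bp of that in the reference. Intervals were placed from the gene start in the lists (GRCh37), and the sequences from that in the reference. Overlaps of an interval with a sequence shown are therefore approximate. KRT5 stands for the epithelial keratins with activator STAT5 intervals, KRT24 and KRTAP4-4 hold the letters bound by STAT proteins, and KRTAP13-1 is among the few members whose activator STAT5 interval reaches this window. The sequences are from RefSeq (GRCh38.p14), 5′ to 3′ on the gene's strand, at chr12:52520345-52520644 (minus strand) for KRT5, chr17:40703703-40704002 (minus) for KRT24, chr17:41160699-41160998 (minus) for KRTAP4-4 and chr21:30395781-30396080 (plus) for KRTAP13-1. Capitals mark TTCNNNGAA, the palindrome that STAT proteins recognise, or TATAAA, the TATA box letters on the gene's strand.
KRT5: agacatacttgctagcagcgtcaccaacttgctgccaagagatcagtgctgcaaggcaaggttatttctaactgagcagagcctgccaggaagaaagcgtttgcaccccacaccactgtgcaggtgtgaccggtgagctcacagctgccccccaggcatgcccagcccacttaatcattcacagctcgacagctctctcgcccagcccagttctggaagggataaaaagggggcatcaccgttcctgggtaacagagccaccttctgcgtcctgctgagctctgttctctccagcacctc
KRT24: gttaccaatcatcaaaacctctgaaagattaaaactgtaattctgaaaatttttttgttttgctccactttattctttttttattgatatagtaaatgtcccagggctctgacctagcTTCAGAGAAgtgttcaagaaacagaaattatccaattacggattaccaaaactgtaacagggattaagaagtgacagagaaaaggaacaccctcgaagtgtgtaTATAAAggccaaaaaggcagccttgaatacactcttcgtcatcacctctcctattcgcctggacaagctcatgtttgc
KRTAP4-4: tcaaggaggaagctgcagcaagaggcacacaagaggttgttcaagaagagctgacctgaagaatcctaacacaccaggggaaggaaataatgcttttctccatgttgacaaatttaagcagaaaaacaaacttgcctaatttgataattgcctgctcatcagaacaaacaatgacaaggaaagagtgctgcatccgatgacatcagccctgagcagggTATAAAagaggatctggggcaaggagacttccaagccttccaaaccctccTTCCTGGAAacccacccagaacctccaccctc
KRTAP13-1: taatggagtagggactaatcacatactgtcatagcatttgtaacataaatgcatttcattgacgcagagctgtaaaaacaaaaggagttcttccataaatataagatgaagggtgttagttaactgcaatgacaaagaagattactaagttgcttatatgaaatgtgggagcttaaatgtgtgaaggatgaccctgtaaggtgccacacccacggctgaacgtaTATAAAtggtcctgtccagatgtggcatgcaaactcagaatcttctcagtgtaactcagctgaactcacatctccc
KRT24 holds TTCAGAGAA at -132 and TATAAA at -28, counted from the start, which stands at 0. KRTAP4-4 holds TTCCTGGAA at 18, inside the transcribed part, and TATAAA at -32. KRTAP13-1 holds TATAAA at -26. No match to any of the letters searched lies in the KRT5 window.

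In composition these windows differ from most promoters. Of the 149 protein-coding members, 114 have a promoter in the reference table. Coverage is uneven, with 80 of 94 KRTAP genes, 14 of 17 hair keratins, 8 of 9 root sheath keratins and 12 of 28 epithelial keratins. Most epithelial keratins are thus not covered. TATAAA on the gene's strand is in 79 of these 114 (69.3%), against 1095 of all 15843 protein-coding promoters (6.91%). It is in 61 of 80 KRTAP promoters (76.3%), 8 of 14 hair keratin promoters (57.1%), 6 of 8 root sheath keratin promoters (75%) and 4 of 12 epithelial keratin promoters (33.3%). The median G and C content is 43.7% in members, against 62.7% in all promoters. TTCNNNGAA, which reads the same on both strands, is in 16 of 114 member promoters (14.0%), against 6.97% of all promoters. Of those 16 promoters, 14 belong to KRTAP genes. The same arms with 1 more base between them are in 7.02% of member promoters, against 5.18% of all. These shares were not adjusted for G and C content. A match is a description of the letters, not of a bound site.

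**Figure D1:**
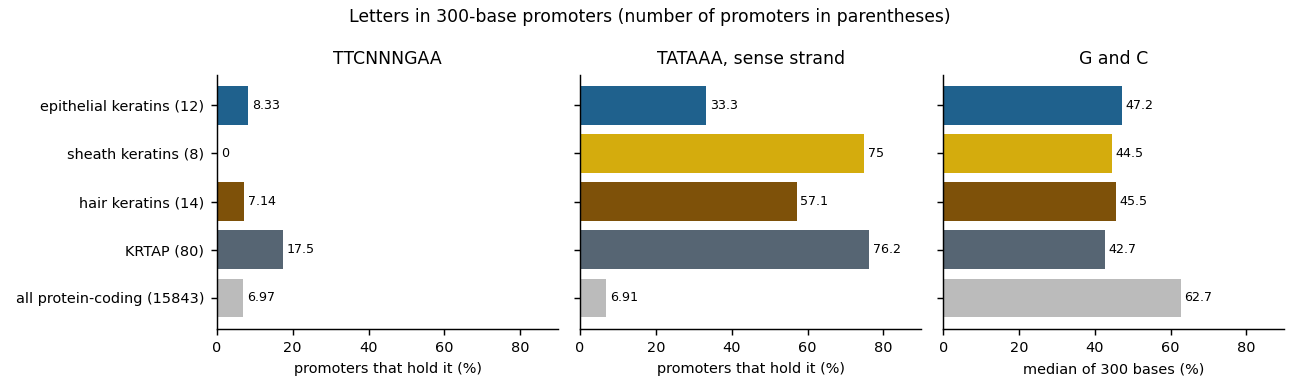
Share of 300-base promoters that hold TTCNNNGAA (left) or TATAAA on the gene's strand (middle), and median G and C content (right), in percent, for each class of members and for all protein-coding promoters. TATAAA is in 76.3% of KRTAP promoters and 33.3% of epithelial keratin promoters, against 6.91% of all. The promoters cover 80 of 94 KRTAP genes and 12 of 28 epithelial keratins.

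Every interval in the lists has its lower coordinate from 3000 bp upstream to 1000 bp downstream of a gene start (GRCh37), so its other end can lie outside that window, and it has a whole-number value in each library, read here as a count of reads. The smallest value above 0 is 2. Entry to a treated list required a value in every library of the group, and entry to a control list a value in at least 1 library. No treated interval shares a base with a control peak of the same antibody. A gene's presence in a treated list and in a control list therefore does not compare its occupancy between treated and control cells, and only shares within a list are set side by side. The labels and headers state no depth.

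In activated cells STAT5 intervals lay at 37 of 149 protein-coding members (24.8%, exact 95% interval 18.1 to 32.6%), against 26.1% of all protein-coding genes. In inhibitor-treated cells BCL6 intervals lay at 7 of 149 members (4.70%, 1.91 to 9.44%), against 3.3% of all. In control cells STAT5 intervals lay at 116 members (77.9%, 70.3 to 84.2%), against 74.9% of all, and BCL6 intervals at 118 members (79.2%, 71.8 to 85.4%), against 73.9% of all. In each of the 4 lists the share of all genes lies within the members' interval, so keratin and KRTAP genes as a whole could not be told apart from other genes by how often they were listed. These intervals cover counting error over genes and take genes as independent, although neighbouring KRTAP genes can share an interval.

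The members carried 42 distinct intervals in the activator STAT5 list, 6 in the inhibitor BCL6 list, and in control cells 239 for STAT5 and 222 for BCL6. Both control lists held 97 members, the control STAT5 list alone 19, and the control BCL6 list alone 21. In no list at all were 11 protein-coding members. They include KRT14, the basal partner of KRT5, as well as the hair keratin KRT32, KRT77 and 8 KRTAP genes. The lists gave a start for 138 of the 149 protein-coding members. They did so for 16287 of all 20056 protein-coding genes, so absence was not particular to members. A treated list held 43 members, and KRT26 was the only member in both treated lists. Shares over all genes were not computed for these combinations of lists.

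**Figure D2:**
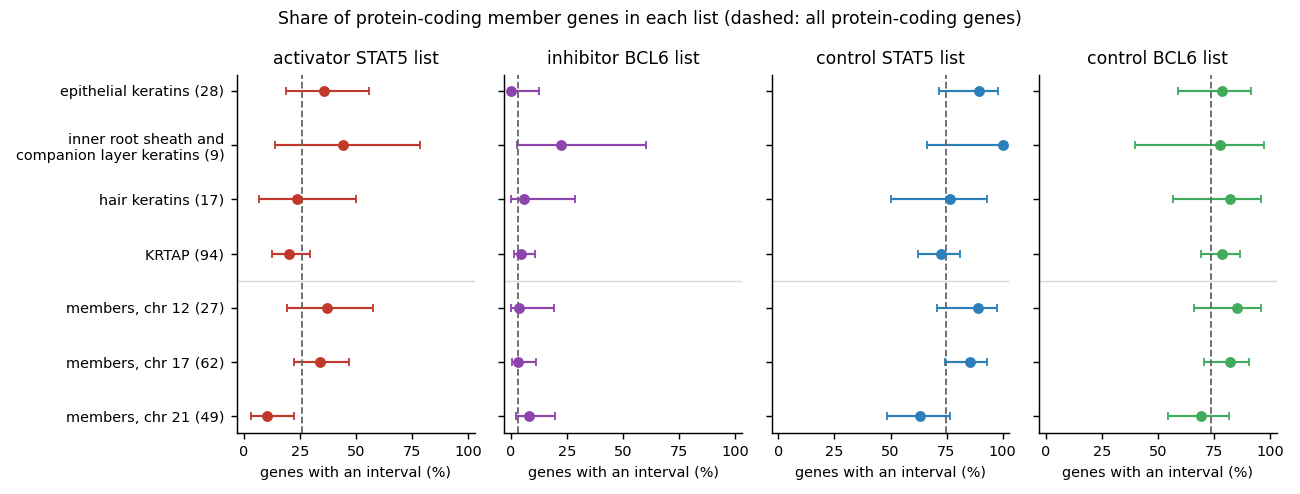
Percent of protein-coding genes of each class (upper rows) or chromosome (lower rows) with an interval in each list, with exact 95% intervals, and the number of genes in parentheses. The dashed line is the share of all protein-coding genes (26.1, 3.3, 74.9 and 73.9%). Members on chromosome 21 sit below the dashed line in the activator STAT5 list, at 10.2%.

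The simple epithelium keratins, which include those of the gut lining, numbered 7 (KRT7, KRT8, KRT18, KRT19, KRT20, KRT23 and KRT80). Activator STAT5 intervals were found at 2 of 7, KRT23 and KRT80 (28.6%, 3.67 to 71.0%, against 26.1% of all genes), and in the inhibitor BCL6 list 0 of 7 (against 3.3%). In control cells 7 of 7 had intervals for both antibodies (59.0 to 100.0%, against 74.9% of all genes for STAT5 and 73.9% for BCL6). Each share of all genes lies within the exact interval for these 7.

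At KRT8, the main type II keratin of the gut, the control STAT5 intervals had 2 and 3 reads in the 2 libraries at chr12:53297912-53298475, 2 and 0 at chr12:53298621-53298913, and 0 and 2 at chr12:53299157-53299413. The second of these spans the gene start. Its control BCL6 intervals had 0 and 2, 0 and 2, 3 and 0, and 2 and 0 reads, and the one at chr12:53298596-53298872 also spans the start. The first control STAT5 interval was the only one of these 7 with a value in both libraries.

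KRT18, the type I partner of KRT8, had 4 control STAT5 intervals with 2 reads each, 2 of them in the first library and 2 in the second, and 2 control BCL6 intervals with 0 and 2 reads each. KRT19, a keratin of ducts and gut, had 3 and 3 reads in the control STAT5 libraries at chr17:39686000-39686471, 1440 bp upstream of its start, and 0 and 2 in a further interval. Of member intervals present in both control STAT5 libraries, only that of KRTAP4-5 had a higher sum. Its 4 control BCL6 intervals had 0 and 2, 0 and 4, 0 and 4, and 2 and 0 reads, and the first of them spans the start. All 4 control BCL6 intervals of KRT19 were thus in a single library each.

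KRT20, a keratin of differentiated gut epithelium, had control STAT5 intervals with 2 and 0 reads from 117 bp upstream and 0 and 4 reads from 2802 bp upstream. Its 4 control BCL6 intervals had 2 and 0, 0 and 2, 0 and 4, and 3 and 0 reads. KRT7, a keratin of ductal epithelia, had 1 interval for each antibody, with 2 and 0 reads for STAT5 and 0 and 2 for BCL6. No interval of KRT20 or KRT7 was found in both libraries.

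KRT23 and KRT80 carried activator STAT5 intervals. KRT23 had 6 and 2 reads at chr17:39096474-39096745, 2638 bp upstream of its start, and 3 and 2 reads at chr17:39094768-39094948, 932 bp upstream. The first lay on a control BCL6 peak with 0 and 3 reads. KRT80 had 2 and 2 reads 1064 bp upstream and 3 and 2 reads 2465 bp upstream, and neither interval lay on a control BCL6 peak. In control cells KRT23 had STAT5 intervals with 4 and 0 and with 2 and 0 reads and BCL6 intervals with 0 and 2 and with 0 and 3 reads. Both activator STAT5 intervals of KRT23 and of KRT80 lie upstream of the gene start.

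The wider epithelial class, with the keratins of stratified epithelia, had 28 genes. In the activator STAT5 list 10 of them were found (35.7%, 18.6 to 55.9%), and in the inhibitor BCL6 list 0, which allows a share of up to 12.3% (upper exact bound). The 10 genes were KRT10, KRT12, KRT15, KRT23, KRT4, KRT5, KRT6B, KRT76, KRT78 and KRT80. All 15 of their activator STAT5 intervals began upstream of the gene start, against 76.2% of gene assignments in the whole list. In the control lists 25 of 28 had a STAT5 interval (89.3%, 71.8 to 97.7%) and 22 of 28 a BCL6 interval (78.6%, 59.1 to 91.7%). The shares of all genes in these lists (26.1, 3.3, 74.9 and 73.9%) each lie within the exact interval of this class.

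KRT15, a keratin of basal cells and hair follicle stem cells, had the highest value of the activator STAT5 members, with 2 reads in the first library and 10 in the second at chr17:39679859-39680030, 1078 bp upstream. The KRT15 model spans 8786 bp in the lists, against 5146 bp in the reference, so this distance is uncertain. Most of the interval also lies inside the KRT19 span in the lists (chr17:39679870-39684560). It ends at the base before a control STAT5 peak with 2 and 0 reads. The 2 libraries thus differ widely at the interval with the highest sum. KRT12, the type I keratin of the cornea, had 4 and 5 reads at chr17:39024440-39024696 and 2 and 5 reads at chr17:39024809-39024901, both on the same control BCL6 peak with 2 and 0 reads.

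KRT5, the type II keratin of basal cells, had activator STAT5 values of 3 and 2 at chr12:52916024-52916162 and of 2 and 4 at chr12:52916913-52917183. Both lay on control BCL6 peaks, the first with 0 and 2 reads and the second with 2 and 4. That second peak was among the 5 member peaks with the highest sum that both control BCL6 libraries held. A control STAT5 interval with 3 and 0 reads reaches 126 bases of the promoter shown above, counted from the start in the lists. The KRT5 lengths in the lists and the reference differ by 60 bp, so this overlap is uncertain. KRT4, a keratin of the upper layers of mucosal epithelia, had 5 and 2 reads 2911 bp upstream on a control BCL6 peak with 2 and 0 reads, and no control STAT5 interval. KRT76 had 2 and 5 reads in 2 intervals, of which the second is 5 bp long, on either side of a control STAT5 peak with 0 and 3 reads. Both intervals thus have the same pair of values, and whether they are parts of 1 peak was not tested. They count as 2 of the 42 activator STAT5 intervals at members and of the 15 at epithelial keratins. KRT10 had 2 and 4 reads, KRT6B 2 and 3, and KRT78 3 and 2, none of them on a control BCL6 peak.

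KRT6B, a keratin of activated keratinocytes, had the highest value among members in control cells, with 9 and 6 BCL6 reads at chr12:52846682-52847386, 772 bp upstream. Its 5 control STAT5 intervals had 2 to 5 reads, each in 1 library. KRT24 had control STAT5 intervals with 0 and 3, 0 and 2, 0 and 2, and 3 and 0 reads, and the second spans its start and covers 182 bases of the promoter shown above. Its control BCL6 intervals had 2 and 0 reads each, and 65 bases of that promoter lie in the upstream one. KRT24 was in neither treated list.

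The keratins of the inner root sheath and of its companion layer (KRT25 to KRT28 and KRT71 to KRT75) numbered 9. In the activator STAT5 list 4 were found (KRT26, KRT28, KRT71 and KRT75), in the inhibitor BCL6 list 2 (KRT26 and KRT72), and in control cells 9 for STAT5 and 7 for BCL6. The shares were 44.4% (13.7 to 78.8%, against 26.1% of all genes), 22.2% (2.81 to 60.0%, against 3.3%), 100.0% (66.4 to 100.0%, against 74.9%) and 77.8% (40.0 to 97.2%, against 73.9%). With 9 genes these exact intervals are wide, and each includes the share of all genes.

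KRT26, a type I keratin of the inner root sheath, had the highest BCL6 sum of any member under the inhibitor, with 4, 4 and 6 reads at chr17:38930355-38930468, 1941 bp upstream. This interval lies on a control STAT5 peak with 2 and 0 reads and ends at the base before a control BCL6 peak with 0 and 3 reads. In activated cells a STAT5 interval with 3 and 3 reads lay 511 bp away at chr17:38929728-38929843. KRT26 also had control STAT5 intervals with 0 and 3, 5 and 0, and 2 and 0 reads, and 4 control BCL6 intervals with 2 to 4 reads in a single library each. Intervals of all 4 lists therefore lay upstream of KRT26. Like every treated interval, its inhibitor BCL6 interval shares no base with a control peak of the same antibody.

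KRT72, a type II keratin of the inner root sheath, had 5, 2 and 4 BCL6 reads under the inhibitor at chr12:52997364-52997516, 2072 bp upstream, on a control STAT5 peak with 2 and 0 reads. It had no control BCL6 interval. KRT71 had activator STAT5 values of 4 and 2, KRT28 of 2 and 3, and KRT75 of 2 and 2. KRT71 and KRT28 carried theirs downstream of the start, at 371 to 550 and 255 to 381 bp. Of the control BCL6 peaks, KRT74 had 4 and 2 reads at chr12:52968927-52969595 and KRT75 had 3 and 3 reads at chr12:52830325-52830693. Both of these peaks were among the 5 highest at members in that list.

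The hair keratins, which build the shaft, numbered 17. In the activator STAT5 list 4 were found (23.5%, 6.81 to 49.9%), in the inhibitor BCL6 list 1 (5.88%, 0.149 to 28.7%), and in control cells 13 for STAT5 (76.5%, 50.1 to 93.2%) and 14 for BCL6 (82.4%, 56.6 to 96.2%). These intervals include the 26.1, 3.3, 74.9 and 73.9% of all genes. KRT37 had 3 and 4 reads at chr17:39582804-39582924, KRT84 2 and 5, KRT82 3 and 3, and KRT35 2 and 2 in the activator STAT5 libraries. None of these 4 intervals lay on a control BCL6 peak. KRT40 had 4, 3 and 2 BCL6 reads under the inhibitor in a 20 bp interval at chr17:39145808-39145827, 2555 bp upstream. The KRT40 interval lay on no control STAT5 peak.

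**Figure D3:**
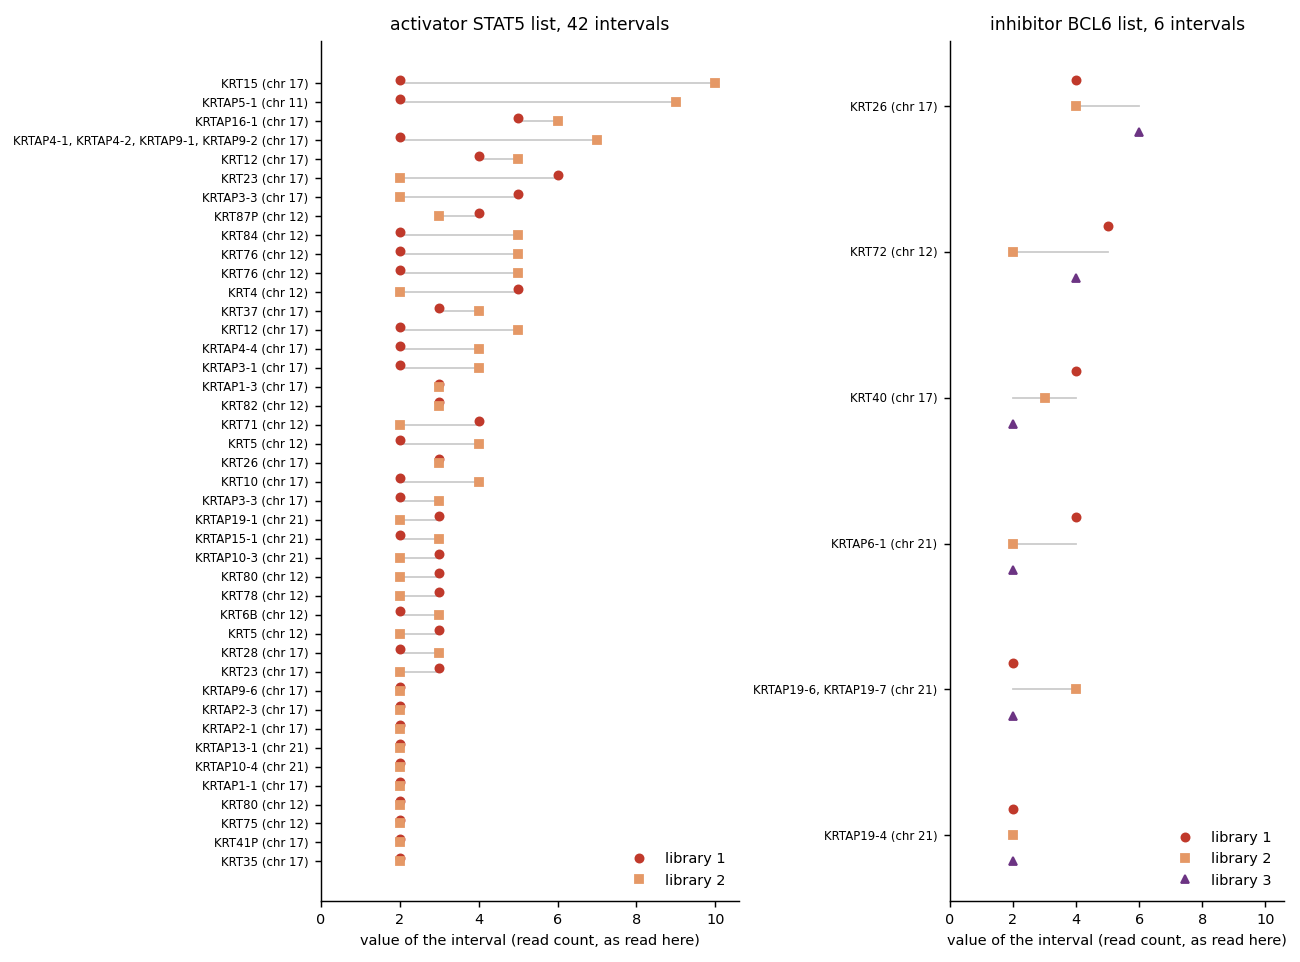
Value of every member interval (read count, horizontal axis from 0) in each activator STAT5 library (left, 42 intervals) and each inhibitor BCL6 library (right, 6 intervals), ordered by the sum, with a line from the lowest to the highest library. The second activator library has 10 reads at KRT15 and 9 at KRTAP5-1, where the first has 2 at each.

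KRTAP genes are the largest class, with 94 protein-coding genes. In the activator STAT5 list 19 were found (20.2%, 12.6 to 29.8%), in the inhibitor BCL6 list 4 (4.26%, 1.17 to 10.5%), and in control cells 68 for STAT5 (72.3%, 62.2 to 81.1%) and 74 for BCL6 (78.7%, 69.1 to 86.5%). Each interval includes the share of all genes, at 26.1, 3.3, 74.9 and 73.9%. Set against the epithelial keratins, the KRTAP share differed by -15.5 percentage points in the activator STAT5 list (Newcombe 95% interval -35.2 to 2.11), by 4.26 in the inhibitor BCL6 list (-8.08 to 10.4), by -17.0 for STAT5 in control cells (-29.0 to 1.39) and by 0.152 for BCL6 in control cells (-14.4 to 19.6). Each of these intervals includes 0. Hair keratins set against epithelial keratins differed by -12.2 (-35.3 to 15.9), 5.88 (-7.12 to 27.0), -12.8 (-37.6 to 8.79) and 3.78 (-22.2 to 25.2) points in the same order of lists. With whole windows and any listed interval, no difference between hair-type genes and epithelial keratins was resolved. Within 1000 bp of the start the KRTAP share was below the epithelial one by an interval without 0 in both control lists, at -25.7 points for STAT5 (-42.2 to -4.65) and -22.1 for BCL6 (-39.3 to -1.05). Without the second control STAT5 library the STAT5 difference was -23.6 points (-40.1 to -2.55), and with a value required in both libraries it was 3.12 (-14.3 to 14.1).

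KRTAP genes are short and crowded. Their median span in the lists was 940.5 bp and the median distance to the nearest member start 6556 bp, against 6245 bp and 18620 bp for epithelial keratins. Their windows therefore overlap, and a KRTAP gene brought 3.45 kb of window of its own, against 4.00 kb for an epithelial keratin. Windows could be placed only for genes whose start the lists give. These were 86 of 94 KRTAP genes, 26 of 28 epithelial keratins and 16287 of 20056 protein-coding genes. Genes that were never listed are thus left out of the densities. Counted per 10 kb of window, KRTAP genes had 0.574 activator STAT5, 0.101 inhibitor BCL6, 4.05 control STAT5 and 3.78 control BCL6 intervals. Epithelial keratins had 1.44, 0, 5.86 and 5.19 in the same order. All protein-coding genes with a window had 0.959, 0.106, 4.48 and 4.34. The density at epithelial keratins was above that reference in all lists but the inhibitor BCL6 list. For KRTAP genes it differed by chromosome. On chromosome 17 it was 0.969 activator STAT5 intervals per 10 kb, from 11 intervals and near the reference of 0.959. For control STAT5 it was 5.02 and for control BCL6 4.76, above the reference. On chromosome 21 it was 0.331, 3.38 and 2.72 in the same 3 lists, below the reference. No error range was computed for these densities, and no difference was tested. The inhibitor BCL6 densities rest on a few intervals.

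KRTAP16-1, a high-sulphur KRTAP gene, had 5 and 6 activator STAT5 reads at chr17:39467380-39467564, 1875 bp upstream. The interval lies on a control BCL6 peak with 2 and 2 reads and begins at the base after a control STAT5 peak with 2 and 0 reads. KRTAP16-1 was the only gene of the 14 in the shared list of activator STAT5 intervals, other than KRT5, whose control BCL6 peak had a value in both control libraries. KRTAP5-1, an ultra-high-sulphur gene on chromosome 11, had 2 and 9 reads at chr11:1606592-1606854, from 79 bp upstream, and no control STAT5 interval. Its value came mostly from the second library.

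The interval at chr17:39343276-39343439 stands for 4 genes at once, KRTAP4-1, KRTAP4-2, KRTAP9-1 and KRTAP9-2, with 2 and 7 activator STAT5 reads. It lies on a control BCL6 peak with 0 and 4 reads and begins at the base after a control STAT5 peak with 0 and 3 reads. By the lists' gene models its lower end lies 43 bp downstream of the KRTAP4-2 start. That model spans 9621 bp, against 776 bp in the reference, so the position relative to this gene is uncertain. The same holds for KRTAP9-2, whose model spans 37804 bp, against 1005 bp in the reference. These 4 genes count as 4 listed genes but rest on 1 interval.

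The remaining activator STAT5 values at KRTAP genes ran from 2 to 5. KRTAP3-3 had 5 and 2 reads 255 bp upstream and 2 and 3 reads 1017 bp upstream, and KRTAP3-1 and KRTAP4-4 had 2 and 4. KRTAP4-4 carried these in a 20 bp interval on a control BCL6 peak with 2 and 0 reads. A further control BCL6 peak of KRTAP4-4, at chr17:39317149-39317467 with 3 and 2 reads, covers 85 bases at the upstream end of the promoter shown above. KRTAP2-3 and KRTAP9-6, with 2 and 2 reads each, lay on control BCL6 peaks with 2 and 0 and with 0 and 4 reads.

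In control cells the KRTAP4-5 interval at chr17:39307410-39308048 had the highest STAT5 sum of member intervals that both libraries held, with 6 and 3 reads. KRTAP1-4 had 3 and 2 STAT5 reads at chr17:39186131-39186624, which spans its start, and KRTAP1-3 had 6 and 2 BCL6 reads at chr17:39193756-39194180. KRTAP1-1 and KRTAP5-6 had the most control STAT5 intervals, 6 each, and KRTAP5-6 the most control BCL6 intervals, 5. Of the 6 at KRTAP1-1, only 1 had a value in both libraries, with 2 and 2 reads. The hair keratin KRT33B came next with 5 control STAT5 intervals, of 2 and 0, 3 and 0, 2 and 0, 2 and 0, and 0 and 2 reads. In the control BCL6 list several members had 4, among them KRT19 and KRT12, and KRT12 had 2 reads in a single library at each. Most control intervals at members were of this kind, with 2 or 3 reads in a single library.

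**Figure D4:**
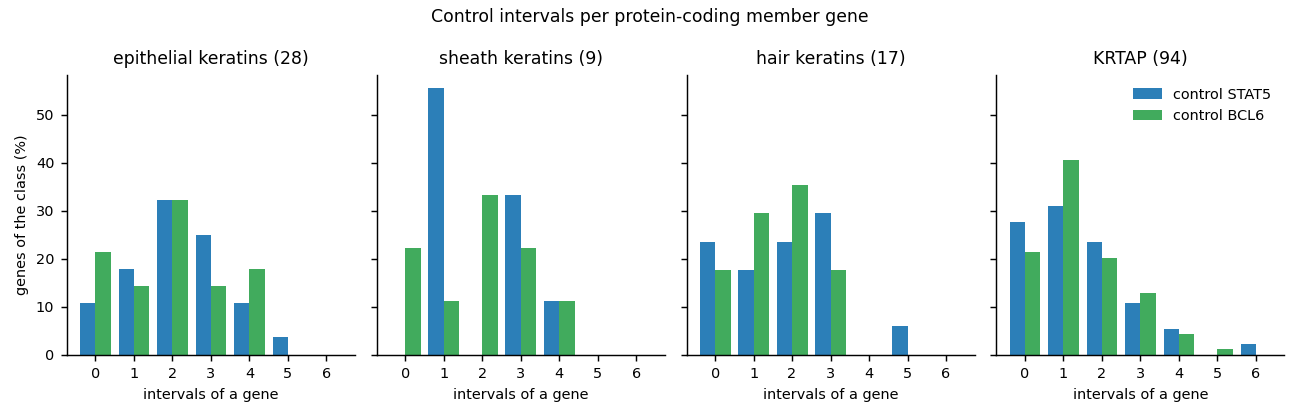
Percent of genes of each class (vertical axis) by the number of their intervals (horizontal axis) in the control STAT5 list and the control BCL6 list, with the number of genes in parentheses. Epithelial keratins have a median of 2 intervals and KRTAP genes of 1 in both lists, and no member has more than 6.

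By chromosome, the KRTAP genes of chromosomes 17 and 21 had different shares. In the activator STAT5 list 13 of 34 KRTAP genes on chromosome 17 were found (38.2%, 22.2 to 56.4%), against 5 of 49 on chromosome 21 (10.2%, 3.40 to 22.2%), a difference of 28.0 points (Newcombe 95% interval 9.62 to 45.7). Without the 4 genes that share 1 interval, 9 of 30 on chromosome 17 were left (30.0%, 14.7 to 49.4%). In the control STAT5 list the shares were 85.3% on chromosome 17 and 63.3% on chromosome 21, a difference of 22.0 points (2.45 to 38.3). In the control BCL6 list they were 88.2% and 69.4%, a difference of 18.9 points (0.305 to 34.5). In the inhibitor BCL6 list 0 of 34 on chromosome 17 (up to 10.3%) stood against 4 of 49 on chromosome 21 (8.16%), a difference of -8.16 points (-19.2 to 3.13). The order of the 2 chromosomes was thus the same in 3 lists and turned round in the fourth, where the interval includes 0.

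Other genes of the same chromosomes stood in the same order in the 3 larger lists. Outside the members, the activator STAT5 list held 25.5% of protein-coding genes of chromosome 17 and 19.5% of those of chromosome 21, the control STAT5 list 72.9 and 66.3%, and the control BCL6 list 72.5 and 69.0%. The part of the chromosome as a whole in the KRTAP difference was not tested. Set against their own chromosome, KRTAP genes of chromosome 21 were listed for activator STAT5 at 10.2%, against 19.5% of its other genes (14.1 to 25.8%), and the exact intervals overlap. In the inhibitor BCL6 list they were listed at 8.16% (2.27 to 19.6%), against 2.11% of the other genes of chromosome 21 (0.577 to 5.30%). All members of chromosome 17 stood at 33.9% (22.3 to 47.0%), against 25.5% of its other genes, and the keratins of chromosome 12 at 37.0% (19.4 to 57.6%), against 30.2%. The intervals on chromosomes 17 and 12 include the share of the other genes.

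The cluster on chromosome 12 runs over 783.9 kb (52562781 to 53346684) and that on chromosome 17 over 985.5 kb (38810918 to 39796451). On chromosome 21 the KRTAP genes fall into a group of 29 over 600.2 kb (31653630 to 32253874) and a group of 15 over 159.0 kb (45958865 to 46117880). The first group carried 3 activator STAT5, 3 inhibitor BCL6, 31 control STAT5 and 27 control BCL6 intervals, and the second 2, 0, 20 and 14. All 4 inhibitor BCL6 genes of chromosome 21 lay in the first group.

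**Figure D5:**
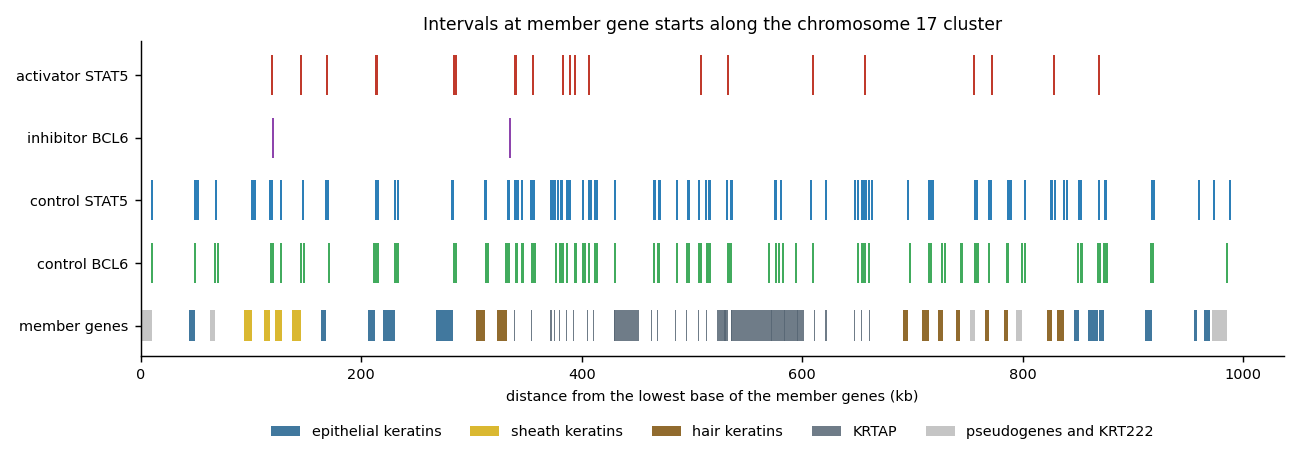
Map of the chromosome 17 cluster, with distance in kb from the lowest base of its member genes. Each tick is the centre of an interval at a member gene start, in 1 row for each list, and the bars in the lowest row are the gene spans given in the lists, coloured by class. Activator STAT5 ticks are spread along most of the cluster, and the 2 inhibitor BCL6 ticks belong to KRT26 and KRT40.

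These chromosome 21 genes code for KRTAP proteins rich in glycine and tyrosine. KRTAP6-1 had 4, 2 and 2 BCL6 reads under the inhibitor at chr21:31987777-31987867, 1528 bp upstream, and was in neither control list. KRTAP19-6 and KRTAP19-7 share a 2 bp interval at chr21:31935767-31935768 with 2, 4 and 2 reads. KRTAP19-4 had 2, 2 and 2 reads at chr21:31869831-31869945 on a control STAT5 peak with 0 and 2 reads. The KRTAP19-4 value is the smallest a library can have in these lists.

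Of the activator STAT5 genes on chromosome 21, KRTAP15-1 had 2 and 3 reads from 957 to 1110 bp upstream, on a control BCL6 peak with 3 and 0 reads, and no control STAT5 interval. KRTAP13-1 had 2 and 2 reads at chr21:31768123-31768165, 228 to 270 bp upstream. Counted from the start in the lists, this interval covers 23 bases at the upstream end of the promoter shown above. The KRTAP13-1 lengths in the lists and the reference differ by 48 bp, so this overlap is uncertain. The interval begins at the base after a control STAT5 peak with 0 and 3 reads. KRTAP19-1 and KRTAP10-3 had 3 and 2 reads each and KRTAP10-4 2 and 2. None of these 5 genes had more than 3 reads in a library.

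A few KRTAP intervals were assigned to 3 or more members. Besides the activator STAT5 interval at KRTAP4-1 and its neighbours, the control STAT5 list held 2 of them, at KRTAP4-2, KRTAP9-1 and KRTAP9-2 (chr17:39346251-39346739, 2 and 2 reads) and at KRTAP13-2, KRTAP13-3 and KRTAP13-4 (chr21:31800645-31801103, 4 and 0 reads). The control BCL6 list held 5, of which 3 belong to the same 4 genes as the activator interval, with 0 and 4, 2 and 0, and 0 and 2 reads. Of the others, that at KRTAP4-2, KRTAP9-1 and KRTAP9-2 had 2 and 0 reads and that at KRTAP20-1, KRTAP22-2 and KRTAP6-3 had 0 and 2. Several KRTAP genes are near copies, and the sources used here do not say how reads that align to several copies were treated. A stretch of 36 bases recurs in the promoter of another member in 22 of 80 KRTAP promoters, 2 of 14 hair keratin promoters (KRT37 and KRT38) and 0 of 12 epithelial keratin promoters. In no promoter do such stretches make up 50% or more. The highest shares were 42.6% at KRTAP4-7 and KRTAP4-9 and 37.0% at KRTAP9-2, and KRTAP4-1, KRTAP4-2, KRTAP4-4, KRTAP4-5 and KRTAP9-1 had none. At the genes with shared stretches the copy a value belongs to is uncertain.

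The study's question concerns sites held by the one factor in control cells and by the other after treatment. Of the 42 activator STAT5 intervals at members, 13 lay on a control BCL6 peak (31.0%, 17.6 to 47.1%), against 25.6% of all activator STAT5 intervals. They belong to 14 genes, namely KRT5, KRT4, KRT12, KRT23, KRTAP3-3, KRTAP2-3, KRTAP4-4, KRTAP4-1, KRTAP4-2, KRTAP9-1, KRTAP9-2, KRTAP9-6, KRTAP16-1 and KRTAP15-1. Of the 6 inhibitor BCL6 intervals, 3 lay on a control STAT5 peak (exact interval 11.8 to 88.2%), against 23.7% of all, at KRT72, KRT26 and KRTAP19-4. In control cells, 77 of the 239 STAT5 intervals at members lay on a control BCL6 peak (32.2%, 26.3 to 38.6%), against 30.2% of all. The share at members was thus near that of all intervals in the control STAT5 list, and the intervals of both treated shares include the share of all.

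By class, 6 of 15 activator STAT5 intervals at epithelial keratins and 7 of 17 at KRTAP genes lay on a control BCL6 peak. Of the root sheath and hair keratins, 0 of 4 and 0 of 4 did. The exact intervals are 16.3 to 67.7% for epithelial keratins and 18.4 to 67.1% for KRTAP genes. For each 0 of 4 the upper exact bound is 60.2%. All of them include the 25.6% of all activator STAT5 intervals, and differences between the classes were not tested. Control peaks of the same antibody also bordered treated intervals without sharing a base: 11 of 42 activator STAT5 intervals at members (26.2%, against 18.9% of all) touched a control STAT5 peak, and 1 of 6 inhibitor BCL6 intervals (against 14.3% of all) touched a control BCL6 peak. For those intervals the neighbouring bases were also covered in control cells.

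Values at members were close to those of the whole lists. The median activator STAT5 value was 2 in the first library and 3 in the second, against 2 and 2 in the whole list. Values of 2 made up 53.6% of activator STAT5 values at members (59.2% in the whole list), 73.4% of control STAT5 values (72.6%) and 68.8% of control BCL6 values (72.7%). At least 3 reads in every library were found in 7 of 42 activator STAT5 intervals at members, against 2376 of 14047 in the whole list. Both control libraries held 20 of 239 STAT5 intervals (8.37%, 5.19 to 12.6%), against 9.34% of all, and 15 of 222 BCL6 intervals (6.76%, 3.83 to 10.9%), against 9.19% of all. Fewer than 1 in 10 control intervals at members were therefore found in both libraries of their own group.

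Position was also described. Within 1000 bp of the gene start lay 16 of 45 activator STAT5 assignments of an interval to a member (35.6%, against 49.5% in the whole list), 1 of 7 inhibitor BCL6 assignments (14.3%, against 47.5%), 122 of 254 control STAT5 assignments (48.0%, against 49.6%) and 108 of 243 control BCL6 assignments (44.4%, against 48.7%). The gene start itself lay inside the interval in 1 activator STAT5, 0 inhibitor BCL6, 17 control STAT5 and 17 control BCL6 assignments. Activator STAT5 intervals reach the promoter window of 3 members (KRTAP5-1, KRTAP4-2 and KRTAP13-1) and inhibitor BCL6 intervals that of 0. Control STAT5 and control BCL6 intervals reach that of 32 each, pseudogenes included. Treated intervals at members were narrower, with median widths of 127.5 and 102.5 bp, against 302 and 304 bp in the control lists. A narrow interval covers a given base less often. Starts spanned and promoter windows reached were not counted over all intervals. By their lower coordinate, 38 of 45 activator STAT5 assignments lay upstream (84.4%, against 76.2% in the whole list). All 7 inhibitor BCL6 assignments did (against 77.2%). The window itself reaches 3000 bp upstream and only 1000 bp downstream. No exact interval was computed for these shares of position.

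The control libraries allowed the only comparison over samples. Of all intervals of a library, those at members made up 0.356 and 0.339% in the control STAT5 libraries, against 0.346 and 0.292% in the control BCL6 libraries. The means were 0.348 ± 0.0119% and 0.319 ± 0.0380% (SD, n = 2 each), a difference of 0.0284 points with p = 0.667 in a two-sided exact permutation test. The smallest p that 2 against 2 libraries can give is 0.333, so this design cannot pass 0.05. The 2 antibodies' ranges overlap. With at least 3 reads required they do not, at 0.331 and 0.342% in the control STAT5 libraries, against 0.355 and 0.369% in the control BCL6 libraries, and the difference turns to -0.0257 points (p = 0.333, exact permutation test). Without the second control BCL6 library the difference with any value was 0.00150 points.

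Other genes of keratinised epithelia were counted for comparison. Of the genes of the late cornified envelope and its neighbours (LCE, SPRR, FLG and others), 11 of 36 were in the activator STAT5 list (30.6%), 1 in the inhibitor BCL6 list, and in control cells 28 for STAT5 (77.8%) and 33 for BCL6 (91.7%, 77.5 to 98.3%, against 73.9% of all). Of the desmosomal and linker genes that anchor keratin filaments, such as DSP and PLEC, 8 of 19 were in the activator STAT5 list (42.1%, 20.3 to 66.5%), 1 in the inhibitor BCL6 list and 16 in each control list. Of the other intermediate filament genes, such as VIM and LMNA, 4 of 15 were in the activator STAT5 list, 0 in the inhibitor BCL6 list, and in control cells 13 for STAT5 and 10 for BCL6. The exact intervals of the first 2 groups in the activator STAT5 list include the 26.1% of all genes. The same holds for the last group, at 7.79 to 55.1%. Of all genes, the inhibitor BCL6, control STAT5 and control BCL6 lists held 3.3, 74.9 and 73.9%. These shares lie within the exact intervals of each group, except for the envelope genes in the control BCL6 list.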

How the data were processed

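STAT5 and BCL6 intervals of 9 libraries were taken from 6 interval lists. The submitters' processing notes name Bowtie 0.12.7, CASAVA 1.8.2 and the build GRCh37. No source used here names the peak caller, its threshold or the library depths. The authors deposited a whole-number value per interval and library, which no header names and which was read as a count, with widths and signed distances to gene starts. A few reads per interval make each value imprecise.

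Computed here, with Python 3.11.15, pandas 2.3.3 and scipy 1.17.1: symbols were matched to RefSeq names (26166 of 26333 list symbols, 24805 of them directly), intervals were overlapped (at least 1 bp) and shares were given with exact Clopper-Pearson or, for differences, Newcombe 95% intervals. Intervals cover counting error only. The single test was an exact permutation over the 4 control libraries. The overlap code was tested on simulated intervals. List names conflict with their columns in 2 cases, so each list is called by its libraries.

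The members, classes and comparison lists were chosen with earlier results of these data known. Named with values were the simple epithelium keratins, every member in the inhibitor BCL6 list or a shared list, the 10 activator STAT5 members with the highest sums, the 5 control members with the highest sums in both libraries and the 3 with most intervals, and intervals at 3 or more members. KRT24 and the other KRT and KRTAP genes given values were added after their values were seen. LOR was left out of the envelope list because no single reference symbol matched it. Alternatives changed the value, the distance, the overlap, the symbols and the libraries used.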

Additional observations from a re-analysis of the deposited data

How the results depend on the processing

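Shares listed depend on what is required of an interval, for members and for all protein-coding genes alike. With at least 3 reads in every library, the activator STAT5 list held 4.03% of members (5.25% of all genes) and the inhibitor BCL6 list 0.671% (0.150% of all). With at least 2 reads in every library, the control STAT5 list held 13.4% (13.8% of all) and the control BCL6 list 10.1% (12.4% of all). Within 1000 bp of the start, the shares were 10.1% (14.5% of all) in the activator STAT5 list, 0.671% (1.57%) in the inhibitor BCL6 list, and in control cells 54.4% (54.3%) for STAT5 and 53.7% (51.5%) for BCL6. Leaving out 1 control library gave 54.4 to 60.4% for STAT5 (52.6 to 59.1% of all genes) and 53.7 to 57.7% for BCL6 (57.5 and 50.7% of all genes, in that order), because fewer intervals are then counted.

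The KRTAP share minus the epithelial keratin share in the control STAT5 list was 3.12 points with at least 2 reads in every library. Within 1000 bp it was -25.7 points (-42.2 to -4.65), and without the second control STAT5 library -23.6 (-40.1 to -2.55), intervals that no longer include 0. In the control BCL6 list within 1000 bp it was -22.1 points (-39.3 to -1.05). With at least 3 reads in every library, the share of inhibitor BCL6 intervals on a control STAT5 peak was 100.0%, from the 1 interval left. The member share of control STAT5 minus control BCL6 libraries was -0.0257 points (p = 0.333, exact permutation test) when at least 3 reads were required. The cause was not tested. Leaving out a library gave 0.00150 to 0.0553 points. Without a library of a treated list the same intervals stay listed, so no value was computed. No paired analysis was possible from library numbers, because no library numbers are shared between the groups compared. Each library has a number of its own, so this does not exclude that control libraries were made in pairs. The permutation test took them as unpaired, and the effect of a pairing was not tested.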

Other observations

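Pseudogenes that match the symbols also carried intervals. KRT87P, on chromosome 12, had 4 and 3 activator STAT5 reads beside a control STAT5 peak with 2 and 0 reads. KRT41P, on chromosome 17, had 2 and 2 activator STAT5 reads beside a control STAT5 peak with 3 and 0 reads. KRT43P had 4 and 2 control STAT5 reads at chr17:39612450-39613033, a sum equal to that of KRT19. Of 13 pseudogene members, 5 had an interval in a list. The share over all pseudogenes was not computed.

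The gene spans in the lists differ from those of the reference for part of the members. Of 138 protein-coding members with a span in the lists, 92 lie within 60 bp of the reference span and 16 differ by over 5000 bp. KRTAP9-2 spans 37804 bp in the lists, against 1005 bp in the reference, and KRTAP19-6 spans 19754 bp, against 330 bp.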
